A study of Mus musculus with 13 samples.

Results

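The CXCR3 chemokine axis was followed through mouse liver during DDC diet by its 4 genes, the ligand genes Cxcl9, Cxcl10 and Cxcl11 and the receptor gene Cxcr3, out of 55353 genes in the deposited single-cell matrices. The members were taken by gene name. Their raw UMIs (unique molecular identifiers, each standing for 1 captured transcript) were read in barcodes with at least 1500 UMIs, called cells here, in all 13 libraries, by cell type and day of diet. Levels are given as CPM, the usual depth-scaled count: a gene's UMIs in a cell type of 1 library, relative to all UMIs of those cells.

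All groups were livers of male C57BL/6J mice, 6 to 12 weeks old, with no engineered allele. They were fed DDC (a dihydrocollidine compound, 0.1% of the chow), an agent that injures bile ducts and brings on a cholangitis-like disease, for 0 (D0), 3 (D3), 5 (D5), 9 (D9), 19 (D19) or 25 (D25) days, and each day was sampled with 1 library by each of 2 isolation protocols. Protocol A sorted live singlets, leukocytes (Cd45+), cells positive for Lyve-1 or for Pdpn, epithelial cells (Epcam+), endothelial cells without Lyve-1 (Cd31+) and retinoid-autofluorescent cells. Protocol B sorted live cells of a stellate cell preparation, Cd45+ Cd11c+ Cd64- cells, Epcam+ cells and Cd3e+ Lyve-1- cells, so that its gates held few sinusoidal endothelial cells and macrophages and many dendritic and T cells. The 13th library, STOP, was made by protocol B after DDC and 7 days of recovery; the treatment protocol gives 18 days of DDC, the group label day 19 and the description both. D0 is called steady state (2 libraries), D3 and D5 onset (4 libraries) and D9, D19 and D25 progression (6 libraries), together the 12 atlas libraries. The D19 protocol B library is named day 18 in its group label and day 19 in its title, and the study counts both days as D19. No source used here says which or how many mice each library held, so the p-values measure the spread between libraries, which may be technical.

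The libraries held 1541 to 14764 cells each (95563 in all, 87083 in the atlas), with a median of 3350 to 12013 UMIs per cell. Over all cells there were 116862 UMIs of Cxcl9, 4708 of Cxcl10, 828 of Cxcl11 and 13438 of Cxcr3. No pair of libraries shared more than 49 cell barcodes, and the largest share, in another pair, was 0.519% of the smaller library. The cells were clustered without the members and without the genes of the interferon and Th1 lists below, and clusters were named from markers. Xcr1 stood at 282 CPM in cDC1-like cells against 11.8 CPM in cDC2-like cells, and Cd209a at 22 against 536 CPM. Stab2 stood at 652 CPM in LSEC-like cells (liver sinusoidal endothelial cells) and at 83.8 CPM in macrophage-like cells, and Clec4f at 22.2 against 981 CPM. The 8 LSEC markers together reached, relative to LSEC-like cells, 13.7% of their level in macrophage-like, 4.53% in cDC1-like, 1.53% in cDC2-like and 1.02% in T-like cells. None of the 8 was at 0 in any of these types.

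Cxcl9, Cxcl10 and Cxcl11 are small secreted chemokines that share the receptor CXCR3 and draw activated T cells and natural killer (NK) cells into inflamed tissue. Interferon gamma, made by those same cells, induces the ligands through transcription factors such as IRF1, type I interferons and NF-kB add to Cxcl10, and T-bet (Tbx21) switches on the receptor in Th1 cells, CD8 T cells and NK cells. In the liver, the sinusoidal endothelium, macrophages and dendritic cells are known producers, and the axis is known for guiding lymphocytes in hepatitis and in cholestatic disease. In C57BL/6 mice the reading frame of Cxcl11 is disrupted, so its transcript reports on transcription and not on a working chemokine.

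The 3 ligand genes lie side by side on chromosome 5 of GRCm38, all on the minus strand: Cxcl9 at chr5:92321347-92328079, Cxcl10 at chr5:92346638-92348889 and Cxcl11 at chr5:92359544-92365485. GENCODE annotates the first 2 as protein-coding and Cxcl11 as a polymorphic pseudogene. Cxcr3, protein-coding, lies at chrX:101731535-101734269, also on the minus strand. The sequences upstream of Cxcl9, Cxcl10 and Cxcr3 are shown because cells with a Cxcl9 UMI held more Cxcl10, Cxcl11 and interferon-stimulated transcripts than cells without. They are RefSeq promoter windows of GRCm38.p6, 5′ to 3′ on the minus strand, ending at the base before the transcription start; of the Cxcr3 window, only the part upstream of the GENCODE gene is printed. Capitals mark matches to the interferon-stimulated response element (ISRE, searched as GAAA, any 2 bases and GAAA), the gamma-activated site (GAS, TTCNNNGAA), 2 NF-kB forms (GGGA and TTCC with any 2 bases or any 1 base between) and the T-box core (TCACAC), searched on both strands.
Cxcl9, chr5:92328080-92328329: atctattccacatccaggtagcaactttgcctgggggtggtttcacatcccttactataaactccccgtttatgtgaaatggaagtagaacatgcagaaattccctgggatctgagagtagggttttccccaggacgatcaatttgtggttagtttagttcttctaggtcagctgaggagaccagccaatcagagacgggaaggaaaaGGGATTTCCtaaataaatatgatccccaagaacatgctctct
Cxcl10, chr5:92348890-92349139: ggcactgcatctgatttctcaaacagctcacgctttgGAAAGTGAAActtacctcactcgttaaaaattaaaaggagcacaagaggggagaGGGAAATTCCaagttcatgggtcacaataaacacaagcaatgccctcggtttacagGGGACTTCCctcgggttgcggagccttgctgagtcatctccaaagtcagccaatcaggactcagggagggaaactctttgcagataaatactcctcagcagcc
Cxcr3, chrX:101734270-101734397: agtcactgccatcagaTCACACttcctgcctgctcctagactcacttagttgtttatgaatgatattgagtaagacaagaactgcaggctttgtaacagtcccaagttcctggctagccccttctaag
The Cxcl9 window held 1 match, an NF-kB form at bases -42 to -34. The Cxcl10 window held an ISRE at -213 to -204 and NF-kB forms at -159 to -150 and at -103 to -95. In the Cxcr3 window, the T-box core lay at -234 to -229. No GAS match lay in these windows. Of the 32851 RefSeq promoter windows of the same 250 bases, 2.98% held the ISRE, 7.02% the GAS, 1.21% and 1.43% the NF-kB forms, and 12.3% the T-box core. These are matches of letters and not shown to be bound.

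Cxcl9 was highest in LSEC-like cells by its mean over the 12 atlas libraries, though not in D0 B, where macrophage-like, cDC2-like and cDC1-like cells were above them. In LSEC-like cells at steady state it stood at 635 CPM with protocol A and 477 CPM with protocol B. At onset it stood at 409 (D3 A), 465 (D3 B), 858 (D5 A) and 486 (D5 B) CPM, and through progression at 441 (D9 A), 256 (D9 B), 171 (D19 A), 418 (D19 B), 229 (D25 A) and 828 (D25 B) CPM. The range of the fed libraries thus held both steady-state values, and the highest 2 libraries, D5 A and D25 B, came from different protocols and stages. When every cell was thinned to 1500 UMIs, 11.9% to 43.6% of LSEC-like cells per library held a Cxcl9 UMI (median 25.0%). B-like cells, which are not a known source, held one in 0% to 16.0% of cells (median 6.06%, 7 libraries, 0 to 235 CPM) and T-like cells in 0% to 6.90% (median 0.391%). The near-empty barcodes of at most 100 UMIs, which carry free RNA, held Cxcl9 at 41.4 to 350 CPM in protocol A and at 25.5 to 202 CPM in protocol B, and LSEC-like cells were above them in each of the 13 libraries.

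**Figure D1:**
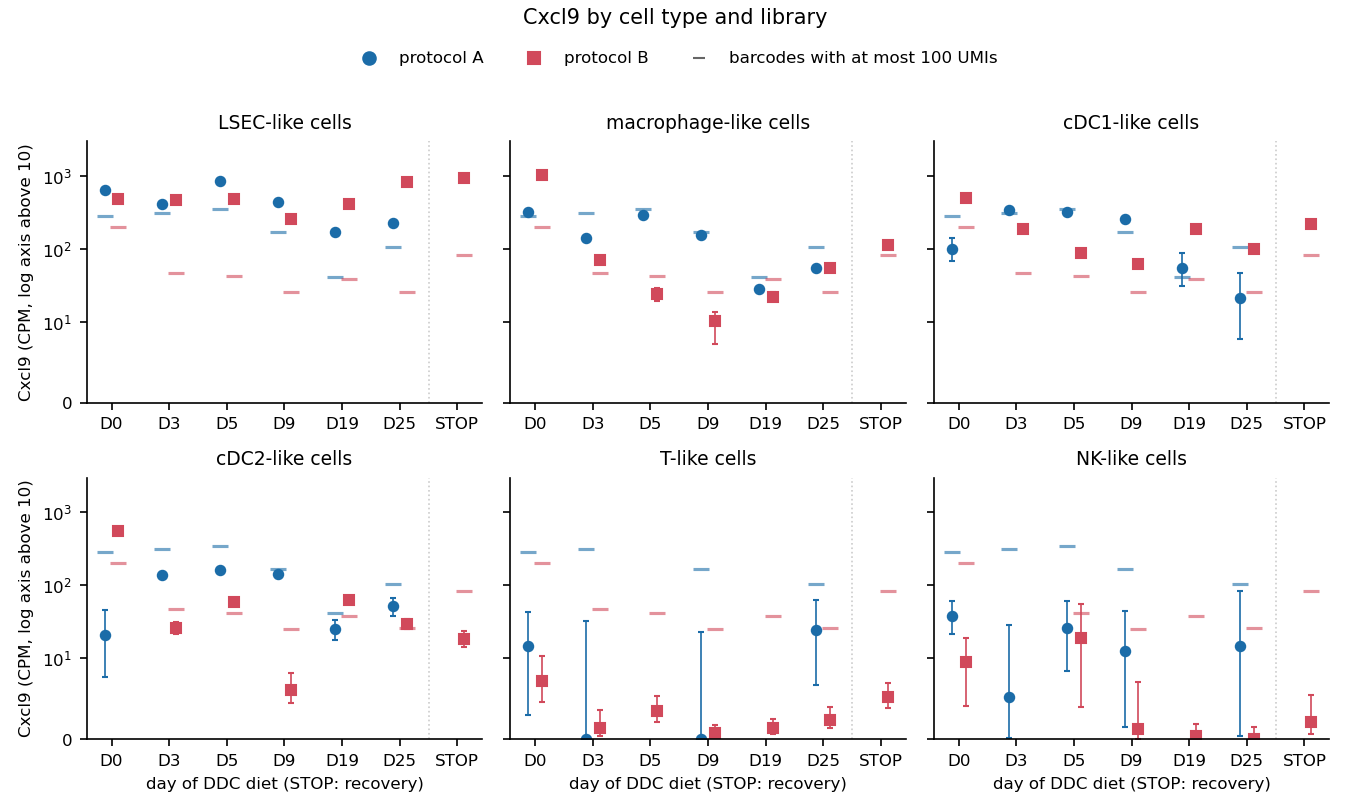
Cxcl9 in CPM (linear from 0 to 10, log axis above) by day of DDC diet in 6 cell types; each point is 1 library, circles protocol A, squares protocol B, bars the exact Poisson 95% interval of the count, and dashes the level in near-empty barcodes. LSEC-like cells sit between 171 and 924 CPM throughout, while macrophage-like cells stand at 324 and 1038 CPM at D0 and between 10.1 and 293 CPM under the diet, in 8 of 10 fed libraries below the dash of the near-empty barcodes.

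Macrophage-like cells carried Cxcl9 at 324 CPM (D0 A) and 1038 CPM (D0 B) at steady state. Under the diet the values were 142, 70.2, 293 and 24 CPM at D3 A, D3 B, D5 A and D5 B, and 153, 10.1, 28.2, 22.1, 54.1 and 53.7 CPM at D9 A, D9 B, D19 A, D19 B, D25 A and D25 B. All 10 fed libraries lay below both steady-state libraries. Both steady-state values were above the near-empty barcodes of their library (284 CPM at D0 A and 202 CPM at D0 B), but 8 of the 10 fed values were below them, all but D3 B and D25 B, so that for most cells of those libraries the UMIs cannot be told from free RNA. A few cells made up much of the level: the cells with at least 20 Cxcl9 UMIs were 10 of 484 at D0 A, with 63.0% of the Cxcl9 UMIs of the type, and 3 of 74 at D0 B, with 84.5%. Of the fed libraries below the near-empty level, D5 A held 23 such cells of 592, with 50.5% of the UMIs and up to 180 in a cell, D3 A 17 (36.5%) and D9 A 25 (31.7%). Over the atlas such cells were 0.875% of macrophage-like cells and held 38.6% of their Cxcl9 UMIs.

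In cDC1-like cells, which cross-present antigen to CD8 T cells, Cxcl9 stood at 99.7 CPM (D0 A, 33 cells) and 493.3 CPM (D0 B, 1197 cells), then at 344, 187, 319 and 86.7 CPM at D3 A, D3 B, D5 A and D5 B. Through progression it stood at 254, 62.8, 54.3, 185, 21.4 and 97.9 CPM. All but 1 of the onset values lay between the 2 steady-state values, and no fed library exceeded D0 B. Near-empty barcodes held more at D0 A, D5 A and D25 A (284, 350 and 106 CPM). Here, too, the UMIs sat in few cells, with 2.97% of cDC1-like cells (131 of 4409) holding 74.3% of the Cxcl9 UMIs of the type.

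In cDC2-like cells, which present antigen mainly to CD4 T cells, D0 A had 20.8 CPM of Cxcl9 (31 cells) and D0 B 550 CPM (1067 cells). The 10 fed libraries ran from 6.08 CPM (D9 B) to 164 CPM (D5 A), 9 of them between the 2 steady-state values. In 8 of the 12 libraries, D0 A and D5 A among them, the value was below the near-empty barcodes. Cells with at least 20 Cxcl9 UMIs made up 1.49% of cDC2-like cells (90 of 6040) and held 79.8% of the UMIs. Libraries below the near-empty level held such cells too, with 11 of 561 cells at D5 A (81.0% of the UMIs, up to 197 in a cell) and 7 of 237 at D3 A (79.7%). T-like cells had 0 to 24.5 CPM and NK-like cells 0 to 37.6 CPM, below the near-empty barcodes in 10 of 10 libraries each, and these levels are read as background. The cDC2-like cells of some protocol A libraries also held macrophage markers. In their cells without a Cxcl9 UMI after thinning, these stood at 6656 (D0 A), 18113 (D19 A) and 10117 CPM (D25 A), and at 585 (D0 B) to 3555 CPM (D9 A) in the others. Macrophage-like cells themselves held 12393 to 22633 CPM of these markers in progression, a range that held the D19 A value. The markers thus go against the name cDC2-like there. Of the 78 cDC2-like cells of D19 A, 44 were of cluster 37, led by Birc5, Nusap1 and H3c3. These libraries stayed in the cDC2-like means and tests, and the part of macrophage RNA or cells in them was not tested.

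Placed in order by mean CPM over the atlas libraries, Cxcl9 ran from LSEC-like (473 ± 215, SD, n = 12) through macrophage-like (184 ± 289), cDC1-like (184 ± 143) and cDC2-like (106 ± 150) to NK-like (12.6 ± 12.3, n = 10) and T-like cells (5.55 ± 8.0, n = 10). LSEC-like cells exceeded macrophage-like cells in 11 of 12 libraries (exact sign-flip permutation test within libraries, adjusted p = 0.0363 over 20 neighbour pairs of all members). The exception was D0 B, through which the macrophage-like mean at steady state (681 CPM) was above the LSEC-like one (556 CPM). The cDC1-like cells exceeded the cDC2-like in 10 of 12 (adjusted p = 0.0293, exact test) and the cDC2-like the NK-like in 9 of 10 (adjusted p = 0.0293, exact test), whereas macrophage-like and cDC1-like cells, and NK-like and T-like cells, did not differ beyond the spread between libraries. Macrophage-like cells exceeded cDC1-like cells in 3 of 12 libraries, their mean of 184 CPM including the 1038 CPM of D0 B, and NK-like exceeded T-like cells in 6 of 9. The call of LSEC-like over macrophage-like cells was lost in 9 of 12 fits that left out a library, with a difference of 244 to 366 CPM. That of cDC1-like over cDC2-like cells was lost in 6 and that of cDC2-like over NK-like cells in 5 of the 12. Of the other types, vascular endothelial-like cells had 175 ± 59.98 CPM (n = 10) and stellate- or fibroblast-like cells 114 ± 142 CPM (n = 8). B-like cells, at 127 ± 87.9 CPM (n = 7), had a mean above that of cDC2-like cells. The share of all Cxcl9 UMIs that came from LSEC-like cells was 37.1% to 71.5% with protocol A and 2.99% to 36.6% with protocol B, the protocols having sorted different gates. In D0 B, 46.0% came from cDC1-like and 33.0% from cDC2-like cells.

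Within LSEC-like cells the level turned on the cluster. Cluster 1, led by Adamts4, Rasd1 and Art3, had 713 ± 224 CPM of Cxcl9 against 253 ± 97.8 CPM in cluster 2, led by Clec4g and Dnase1l3, and was higher in 11 of 11 libraries that held at least 20 cells of both. Cxcl10 was likewise higher in cluster 1 in 11 of 11 (57.6 ± 70.4 against 3.12 ± 2.24 CPM). Cluster 5, led by Erg and Jcad and of low depth, had 171 ± 141 CPM of Cxcl9 (n = 12) and lay below cluster 1 in 12 of 12 libraries. Cluster 15, an unnamed endothelial cluster led by Adamts4, Art3 and Selp, was close to cluster 1 at 662 ± 237 CPM (n = 8). Since the clusters come from the same cells, these are descriptions. Different clusters held the largest share of LSEC-like cells at each stage: cluster 12 held 63.5% at steady state (almost all from D0 A, with 654 CPM there), cluster 1 51.0% at onset, and cluster 2 33.3% in progression.

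Among macrophage-like cells, cluster 3, led by Gpnmb, Ms4a7 and Trem2 and named lipid-associated macrophage-like, went from 171 CPM (D0 A, 42 cells) and 1507 CPM (D0 B, 47 cells) of Cxcl9 to 1.53 to 46.2 CPM in the 10 fed libraries. The D0 B value is 375 UMIs and rests on very few cells. There, 3 of the 74 macrophage-like cells held 84.5% of the Cxcl9 UMIs of the type, up to 217 in a cell. The Kupffer cell-like cluster 11, resident macrophages led by C6, Clec4f and Timd4, had 225 CPM (D0 A) and 9.57 CPM (D0 B, 22 cells) and 5.41 to 206 CPM in 8 fed libraries, so its ranges overlapped. Cluster 20 had 1097 CPM (D0 A) and 0 to 510 CPM in the fed libraries, and cluster 24 had 69.6 to 530 CPM. Among macrophage-like cells both of these clusters were led by endothelial genes, Bmp2, Gja1 and Cldn5 in cluster 20 and Selp, Gja4 and Ednrb in cluster 24, and the 8 LSEC markers together stood at 5579 and 4222 CPM in them, against 138 CPM in cluster 3 and 1349 CPM in cluster 11. Kupffer cell-like cells made up 64.3% of macrophage-like cells at steady state, and cluster 3 39.0% at onset and 58.9% in progression.

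**Figure D2:**
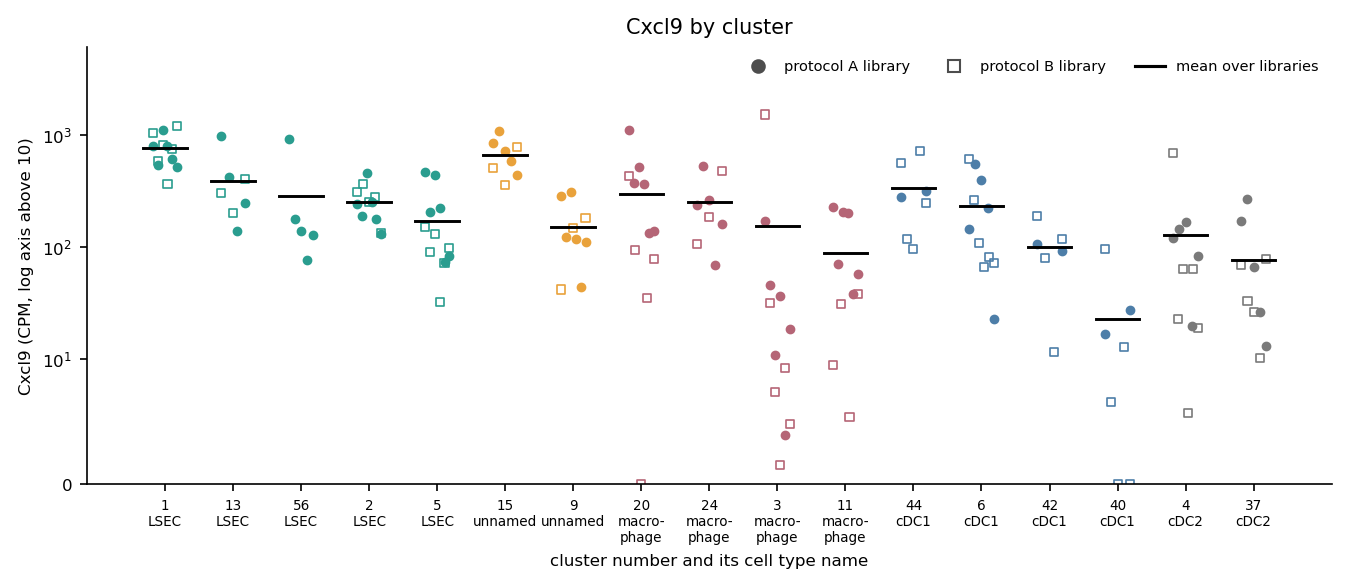
Cxcl9 in CPM (linear from 0 to 10, log axis above) by cluster, for clusters with at least 20 cells in at least 3 atlas libraries; each point is 1 library (filled circles protocol A, open squares protocol B) and each black line the mean over libraries. Among LSEC-like clusters, cluster 1 stands above cluster 2 (752 CPM over 12 libraries against 253 CPM over 11), and cluster 3 of the macrophage-like cells spans 1.53 to 1507 CPM. Its highest point is D0 B, with 47 cells, and rests on very few of them.

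Cxcl10 followed Cxcl9 in being highest in LSEC-like cells. At steady state it stood there at 18.6 CPM (D0 A) and 76.8 CPM (D0 B), and under the diet between 7.56 CPM (D19 A) and 47.0 CPM (D25 B), so that no fed library exceeded D0 B. Macrophage-like cells had 5.82 and 21.5 CPM at steady state and 0.568 to 11.3 CPM under the diet. LSEC-like cells exceeded them in 12 of 12 libraries (25.7 ± 19.9 against 5.52 ± 5.96 CPM, exact sign-flip permutation test, adjusted p = 0.00488), and macrophage-like exceeded cDC2-like cells in 11 of 12 (2.65 ± 2.35 CPM in the latter, adjusted p = 0.0293, exact test), the second call being lost in 5 of 12 fits that left out a library and the first in 0. The remaining neighbours, cDC2-like, cDC1-like (2.40 ± 2.27 CPM), NK-like and T-like cells, did not differ beyond their spread. B-like cells had 0 to 21.9 CPM of Cxcl10, a range that held every value of the types below LSEC-like cells. Near-empty barcodes exceeded macrophage-like cells in 5, cDC1-like cells in 7 and cDC2-like cells in 8 of 12 libraries, and LSEC-like cells in 0 of 12. Over all atlas cells, Cxcl10 stood at 11.7 and 9.73 CPM in clusters 20 and 24, the macrophage-like clusters led by endothelial genes. It stood at 4.90 CPM in cluster 11 and 1.12 CPM in cluster 3, beside 2.47 and 3.18 CPM in cDC2-like clusters 4 and 37. The part of LSEC RNA in the order of macrophage-like and cDC2-like cells was not tested.

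Cxcl11 was rare everywhere. LSEC-like cells held 0.390 to 8.68 CPM of it, from 1 to 150 UMIs per library, with the most at D5 A (8.68 CPM), D25 B (6.62 CPM) and D0 B (6.14 CPM). In D0 B it was also present in macrophage-like (21.5 CPM, 8 UMIs), cDC2-like (15.4 CPM, 96 UMIs) and cDC1-like cells (8.15 CPM, 79 UMIs). In D0 A, cDC1-like and cDC2-like cells had no Cxcl11 UMI, which with so few cells allows up to 9.34 and 10.4 CPM (3 counts; counting error only). Under the diet, cDC1-like cells ranged from 0 to 6.00 CPM (D3 B) and cDC2-like cells from 0 to 5.09 CPM (D5 A), and T-like and NK-like cells had 1 UMI each in the whole atlas. None of the 5 neighbour pairs in the order of cell types differed for Cxcl11.

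Cxcr3 was found where its known carriers are. In T-like cells it stood at 53.3 CPM (D0 A, 62 cells) and 139 CPM (D0 B, 1453 cells) at steady state, at 35.5 (D3 A, 21 cells), 91.0 (D3 B) and 68.1 CPM (D5 B) at onset, and at 43.8 (D9 A), 49.9 (D9 B), 94.0 (D19 B), 79.6 (D25 A) and 99 CPM (D25 B) in progression. Among the atlas libraries of protocol B, which hold most T-like cells, the level was thus highest at D0. NK-like cells, innate killers, had 23.5 CPM (D0 A) and 167 CPM (D0 B) and then 6.21 to 86.6 CPM under the diet, again with D0 B on top. These values come from different clusters: at D0 A 136 of 148 NK-like cells were of cluster 49 (12.8 CPM there) and at D0 B 289 of 386 of cluster 14 (217 CPM), and cluster 14 made up 56.4% of NK-like cells at steady state, 57.5% at onset and 90.2% in progression. Of T-like cells, 4.76% to 16.7% per library held a Cxcr3 UMI after thinning (median 11.6%), against 0% to 0.942% of B-like and 0% to 1.24% of macrophage-like cells.

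Among dendritic cells, cDC1-like and plasmacytoid DC-like cells (pDC, the interferon-producing DC lineage) carried Cxcr3. In cDC1-like cells it stood at 46.7 CPM (D0 A) and 78.9 CPM (D0 B) at steady state and at 25.8, 40.9, 29.9 and 35.5 CPM at D3 A, D3 B, D5 A and D5 B. In progression it stood at 13, 36.9, 30.6, 52.9, 32.2 and 34.7 CPM. With the exception of D19 B, the fed libraries were below both steady-state libraries. Cluster 40 held 3.17%, 21.2% and 17.4% of cDC1-like cells at steady state, onset and progression, and cluster 44 2.20%, 10.3% and 9.63%. In cluster 6 Cxcr3 stood at 63.6 and 80.2 CPM at steady state and 10.9 to 60.1 CPM under the diet. In cluster 42 it stood at 83.3 CPM (D0 B) and 29.8 to 39.1 CPM. Clusters 40 (23.8 against 0 to 25.9 CPM) and 44 (16.7 against 16.0 to 47.4 CPM) overlapped. The pDC-like cells had 8.51 to 75.3 CPM (52.5 ± 25.5, n = 9), a mean above that of cDC1-like cells; the difference was not tested. By contrast, cDC2-like cells had 0 to 5.64, macrophage-like cells 1.62 to 5.79 and LSEC-like cells 0 to 5.29 CPM.

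In order of mean over the 6 types compared, Cxcr3 ran from T-like (75.3 ± 31.5 CPM, SD, n = 10) and NK-like (64.2 ± 43.8, n = 10) through cDC1-like (38.2 ± 16.3, n = 12) to macrophage-like (3.46 ± 1.58), cDC2-like (2.27 ± 1.99) and LSEC-like cells (1.10 ± 1.72). T-like and NK-like cells did not differ beyond their spread. NK-like exceeded cDC1-like cells in 8 of 10 libraries (exact sign-flip permutation test, adjusted p = 0.0477), a call that was lost in 11 of 12 fits that left out a library, and cDC1-like exceeded macrophage-like cells in 12 of 12 (adjusted p = 0.00488, exact test). The near-empty barcodes held Cxcr3 at 1.09 to 6.39 CPM in protocol A and at 21.5 to 48.1 CPM in the atlas libraries of protocol B. T-like cells were above them in 10 of 10 libraries, NK-like cells in 10 of 10 and pDC-like cells in 9 of 9, whereas cDC1-like cells at D25 B (34.7 CPM) were below the near-empty barcodes of that library (46.6 CPM). LSEC-like and cDC2-like cells were below them in 12 of 12 and macrophage-like cells in 8 of 12 libraries, so no order is read among these 3 types.

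By cluster, Cxcr3 was highest in cluster 8, CD4 T-like (183 ± 52.9 CPM, n = 7), and above the CD8 T-like cluster 23 (139 ± 31.7 CPM) in 6 of 6 libraries that held both. The unnamed cluster 17, with Klra and Trg genes among its leading genes, followed at 110 ± 40.6 CPM and NK-like cluster 14 at 105 ± 63.6 CPM (n = 5). The other NK-like cluster, 49, had 23.1 ± 17.2 CPM (n = 6). By markers of T and NK subtypes, cluster 49 was named NK (7 of 8 markers). Cluster 14 stayed unnamed by them, closest to type 1 innate lymphoid cells (2 of 5). The naive T-like clusters 7 and 21, which await their first antigen, had 39.7 ± 8.86 and 8.81 ± 4.22 CPM. Cluster 8 made up 52.3% of T-like cells at steady state, 20.5% at onset and 24.1% in progression, and naive T-like cluster 7 7.85%, 50.2% and 39.1%, so the T-like values over stages come from different mixes of clusters.

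**Figure D3:**
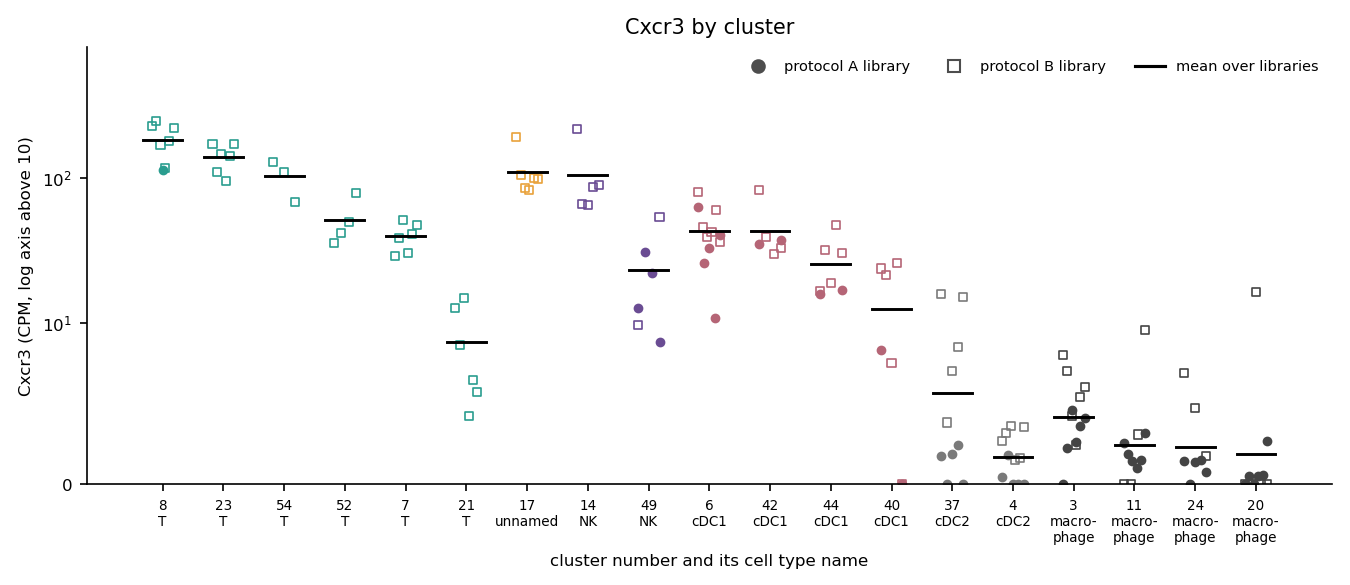
Cxcr3 in CPM (linear from 0 to 10, log axis above) by cluster of T-like, NK-like, dendritic-like and macrophage-like cells; each point is 1 atlas library (filled circles protocol A, open squares protocol B) and black lines are means over libraries. CD4 T-like cluster 8 (183 CPM) and CD8 T-like cluster 23 (139 CPM) stand above the naive T-like clusters 7 (39.7 CPM) and 21 (8.81 CPM).

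Whether the diet moved the members was tested in UMIs summed per library and type, with edgeR's quasi-likelihood test over all genes and the protocol as a term. Of 24 pairs of a member and a cell type, 18 passed the filter on low counts, and 3 passed an adjusted p of 0.05 in DDC against steady state: Cxcl9 in macrophage-like cells and Cxcl11 and Cxcr3 in cDC1-like cells, each lower under the diet. In all, 16 of the 18 estimates were below 0, where the median over all genes tested was -0.02 (NK-like) to 0.08 (macrophage-like). The 18 estimates rest on the same 2 steady-state libraries and are not independent. Some are of pairs at background level. Cxcl9 in T-like cells and Cxcr3 in LSEC-like and cDC2-like cells were below the near-empty barcodes in every library used. With the near-empty level taken off, some differences in mean CPM changed sign, as listed below. Cxcl9 in LSEC-like cells then had 341 CPM under the diet and 313 CPM at steady state. The count of signs is therefore not read as a general fall. In progression against onset none of the 18 passed (edgeR, 2 at an unadjusted p under 0.05, 0 by DESeq2), and 17 were below 0. There the median over all genes tested was -0.02 (macrophage-like) to 0.04 (LSEC-like).

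Cxcl9 in macrophage-like cells, DDC against steady state, had a log2 fold change of -3.53 ± 0.70 (SE, edgeR, adjusted p = 0.00920), where 772 of 12446 genes (6.20%) were called. By the exact permutation test within protocol the 10 fed libraries (84.9 ± 87.9 CPM) differed from the 2 at steady state (mean 681 CPM) with p = 0.0278, the smallest this design allows, which did not hold over the 24 pairs tested (adjusted p = 0.286). Without the D0 protocol B library the log2 fold change was -1.10 and the call was lost (edgeR, adjusted p = 0.396). Within protocol A alone the 5 fed libraries (28.2 to 293 CPM) were below D0 A (324 CPM), and within protocol B alone the 5 fed libraries (10.1 to 70.2 CPM) were below D0 B (1038 CPM). LSEC marker genes stood at 335 to 1944 CPM in macrophage-like cells at steady state and at 337 to 3481 CPM under the diet. Without cluster 20 the log2 fold change was -3.68 (edgeR, adjusted p = 0.0116), but the groups then overlapped, with D0 A at 242 CPM and the highest fed library at 252 CPM (exact permutation test, p = 0.0556). Without clusters 20 and 24 it was -5.01 ± 0.77 (edgeR, adjusted p = 0.00252), with 220 CPM at D0 A, 1064 CPM at D0 B and 2.73 to 118 CPM in the fed libraries. The D0 B level rests on few cells, 3 of 74 macrophage-like cells holding 84.5% of the Cxcl9 UMIs of the type there. After the level of the near-empty barcodes was taken off, D0 A had 39.6 CPM, D0 B 836 CPM and the fed libraries at most 28.0 CPM. The mix of macrophage-like clusters differed between the stages, as given above, and its part was not tested.

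In cDC1-like cells, where 486 of 11492 genes (4.23%) were called, Cxcl11 had a log2 fold change of -3.45 ± 0.82 (edgeR, adjusted p = 0.0256) and Cxcr3 of -1.22 ± 0.26 (edgeR, adjusted p = 0.0155). DESeq2 also called Cxcr3 lower but gave Cxcl11 no adjusted p. Both calls rested on the D0 protocol B library. Without it, no Cxcl11 UMI was left at steady state and the estimate was 3.22 (adjusted p = 0.912), and Cxcr3 had -0.70 (edgeR, adjusted p = 0.626). For Cxcr3, the fed libraries had 33.2 ± 10.3 CPM against a mean of 62.8 CPM, with an exact permutation p of 0.0278 (adjusted p = 0.286). Within protocol A all 5 fed libraries (13 to 32.2 CPM) were below D0 A, and within protocol B all 5 (34.7 to 52.9 CPM) were below D0 B. The mix of cDC1-like clusters differed between the stages, as given above, and its part was not tested. Cxcl9 in cDC1-like cells had -1.35 ± 0.64 (edgeR, adjusted p = 0.232) and Cxcl10 -0.98 ± 0.64 (edgeR, adjusted p = 0.388). LSEC marker genes stood at 85.6 and 128 CPM in cDC1-like cells at steady state. They stood at 265 to 1295 CPM at onset and at 254 to 1044 CPM in progression, and their part was not tested.

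LSEC-like cells showed no called member, with 15 of 12716 genes (0.118%) called in DDC against steady state and 6 (0.0472%) in progression against onset. Cxcl9 had -0.18 ± 0.41 (edgeR, adjusted p = 0.920), Cxcl10 -0.78 ± 0.61 (adjusted p = 0.674) and Cxcl11 -0.11 ± 0.98 (adjusted p = 0.989). In cDC2-like cells, with 2 of 11783 genes (0.0170%) called, Cxcl9 had -2.82 ± 0.98 (edgeR, adjusted p = 0.294), Cxcl10 -2.20 ± 0.87 (adjusted p = 0.345) and Cxcl11 -4.39 ± 1.01 (adjusted p = 0.196). Cxcr3 had -0.70 ± 0.34 in T-like cells (edgeR, adjusted p = 0.274), where 149 of 11212 genes (1.33%) were called, and -0.50 ± 0.42 in NK-like cells (adjusted p = 0.741), where 2 of 5387 (0.0371%) were. Leaving out the D0 protocol A library left D0 B alone at steady state. The estimates then were -2.44 for Cxcl9 in cDC1-like cells and -1.01 for Cxcr3 in T-like cells. In cDC2-like cells they were -4.16 for Cxcl9 and -5.81 for Cxcl11. Leaving out the D0 protocol B library instead turned the estimates of Cxcl9 in cDC1-like (1.24) and cDC2-like cells (2.76) and of Cxcr3 in T-like (0.33) and NK-like cells (0.91) above 0, none of them called. In progression against onset, 110 genes (0.884%) were called in macrophage-like and 1 (0.00870%) in cDC1-like cells. With a library left out the macrophage-like count ran from 8 (without D3 A) to 517 (without D9 A), and the LSEC-like count of 6 from 1 (without D3 A or D25 A) to 65 (without D5 B). In cDC2-like, T-like and NK-like cells edgeR called 0 genes (0%; 749, 464 and 345 at an unadjusted p under 0.05, and 36, 1 and 4 by DESeq2). The differences in response between cell types, tested as the per-library difference of log2(CPM + 5), gave no call in 19 pairs (exact permutation test, smallest adjusted p = 0.106). Since 5 pairs, LSEC-like minus macrophage-like Cxcl9 (2.83) among them, were at the smallest p that 2 steady-state libraries allow (0.0278), this does not show that the responses were alike.

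**Figure D4:**
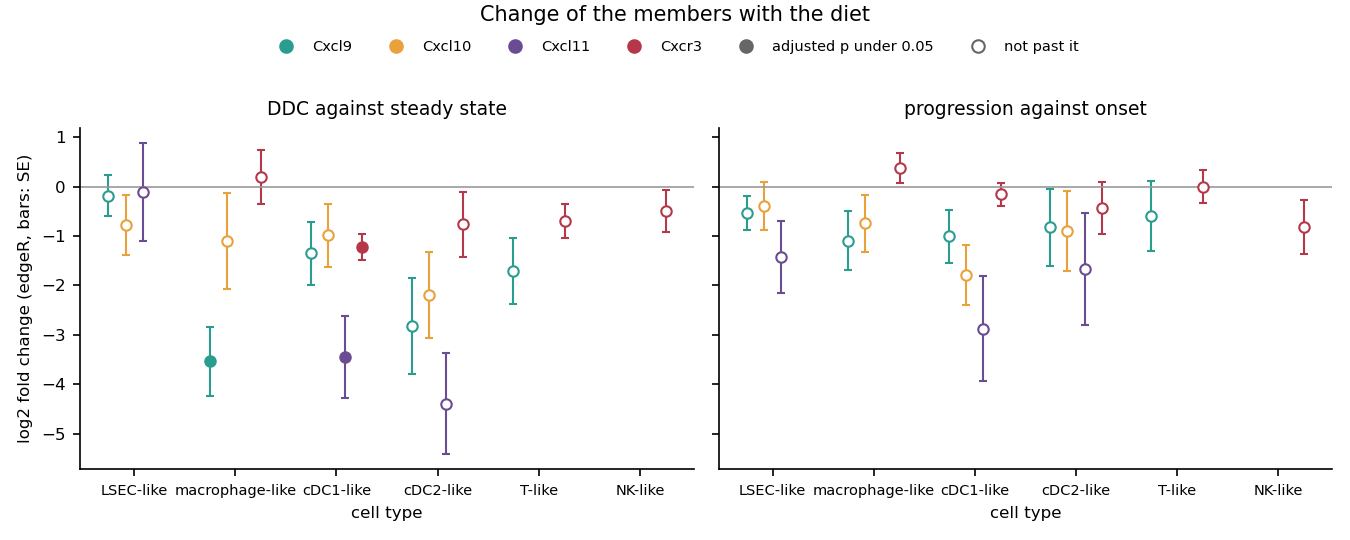
Log2 fold changes of the members by edgeR (points, with SE as bars) in 6 cell types, for DDC against steady state (left) and progression against onset (right); filled points passed an adjusted p of 0.05, and members with no UMI at steady state are left out. The 3 filled points, all at left and below 0, are Cxcl9 in macrophage-like cells (-3.53) and Cxcl11 (-3.45) and Cxcr3 (-1.22) in cDC1-like cells.

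The genes above and below the ligands in the pathway were taken from lists. In macrophage-like cells none of them rose in DDC against steady state (edgeR, 772 of 12446 genes called, 410 of them lower). Among those that fell were the inducer Il27 (1 of 3 tested), the signal transducers Stat2 (-1.10 ± 0.28, adjusted p = 0.0316) and Irf1 (-1.36 ± 0.26, adjusted p = 0.00838), the interferon gamma targets Gbp2, Gbp3 (-1.47 ± 0.20, adjusted p = 0.000899), Gbp5, Gbp7 and Cd274 (5 of 11), and the type I interferon-stimulated genes Rsad2, Ifi44 and Irf7 (-1.51 ± 0.24, adjusted p = 0.00277; 3 of 11). Gbp genes code for guanylate-binding proteins of cell-autonomous defence, and Cd274 for the checkpoint ligand PD-L1. The median log2 fold change of the 11 tested interferon gamma targets was -0.98, beside 0.08 over all genes tested. Of these genes, only Gbp3 and Irf7 passed with each library left out in turn. Without the D0 protocol B library Stat2, Irf1 (-0.87), Gbp2, Gbp5, Cd274, Rsad2 and Ifi44 were not called, and without the D0 protocol A library Il27, Stat2, Gbp2, Gbp5, Gbp7, Rsad2 and Ifi44 were not.

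Among the other types, T-like cells had lower Ifng (-2.04 ± 0.47, edgeR, adjusted p = 0.0332), the interferon gamma gene itself, and lower Isg15 (-2.23 ± 0.33, adjusted p = 0.00222) and Irf7 (-1.60 ± 0.35, adjusted p = 0.0267) under the diet. None of the 3 was called without the D0 protocol B library, where the estimates were -1.42 for Ifng, -1.07 for Isg15 and -0.26 for Irf7. In cDC1-like cells Irf7 was lower (-1.28 ± 0.35, adjusted p = 0.0423), and without that library its estimate was 0.06 and not called. No pathway gene was called in LSEC-like, cDC2-like or NK-like cells (edgeR). The median mitochondrial share of UMIs in T-like cells was 1.28% and 3.26% at steady state. It was 4.31% to 10.1% at onset and 2.96% to 6.72% in progression, and its part in the T-like calls was not tested. The mix of T-like clusters differed too. Naive T-like cluster 7 held 7.85% of T-like cells at steady state, 50.2% at onset and 39.1% in progression, and CD4 T-like cluster 8 held 52.3%, 20.5% and 24.1%. The part of this mix in the T-like calls, Ifng among them, was not tested. In progression against onset, Irgm1 (-0.87 ± 0.19, adjusted p = 0.0450), Irgm2, Ifi44 (-1.56 ± 0.29, adjusted p = 0.0264) and Dpp4, the peptidase that trims the ligands, were lower in macrophage-like cells, each losing the call in at least 5 of the 12 fits that left out a library. None of the 4 was called without clusters 20 and 24 (edgeR, adjusted p = 0.117 to 0.235).

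Which genes went with a ligand was asked inside a type and a library, by setting cells with a Cxcl9 UMI after thinning to 1500 UMIs against cells without. In LSEC-like cells, with 12 libraries, 1072 of 11210 genes (9.56%) were called by edgeR. Cxcl10 was higher in the Cxcl9-positive cells by 1.25 ± 0.09 on the log2 scale (adjusted p = 1.37e-13) and Cxcl11 by 1.79 ± 0.25 (adjusted p = 5.33e-07), each in 12 of 12 libraries. After thinning, 4.65% of Cxcl9-positive against 1.64% of Cxcl9-negative LSEC-like cells held Cxcl10, and 0.770% against 0.161% held Cxcl11. The positive cells lay unevenly over the clusters, with a Cxcl9 UMI in 41.4% of cluster 1, 19.4% of cluster 2 and 12.3% of cluster 5, and over all their atlas cells these clusters held Cxcl10 at 38.8, 3.40 and 2.31 CPM. The part of the clusters in these differences was not tested. All 10 tested type I interferon-stimulated genes were higher, among them Ifit1 (0.94 ± 0.08) and Isg15 (0.90 ± 0.07), and so were 8 of 10 tested interferon gamma targets, among them Iigp1 (0.80 ± 0.07) and Irgm1 (0.51 ± 0.05). Their medians were 0.65 and 0.52, beside -0.01 over all genes tested. Irf1 was higher by 0.69 ± 0.05.

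Of the genes with the largest changes there, Mx2 (1.0 ± 0.08), an antiviral GTPase, Art3 (0.92 ± 0.07), also a leading gene of cluster 1, and Vcam1 (0.87 ± 0.07), the adhesion molecule that holds lymphocytes, were higher in Cxcl9-positive LSEC-like cells. Plppr5 (-0.61 ± 0.07), Il13ra2 (-0.57 ± 0.07), Ltc4s (-0.55 ± 0.08), Rspo3 (-0.52 ± 0.09), a Wnt enhancer of central-vein endothelium, and Sema3d (-0.49 ± 0.08) were lower. LSEC markers stood at 7554 to 14484 CPM in the positive and 6773 to 14190 CPM in the negative cells, and their median depth was 2303 to 9149 and 2095 to 7484 UMIs.

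In cDC1-like cells (4 libraries, D0 B, D3 A, D5 A and D5 B) 669 of 9663 genes (6.92%) were called. Cxcl9-positive cells had more Cxcl10 (2.88 ± 0.61, edgeR, adjusted p = 0.00778, 4 of 4 libraries) and Cxcl11 (6.39 ± 0.72, adjusted p = 5.44e-05, 3 of 4), but less Cxcr3 (-0.91 ± 0.18, adjusted p = 0.00540, lower in 4 of 4). The inducers Il12b (2.11 ± 0.22) and Il27 (3.65 ± 0.70), a subunit of the Th1 cytokine IL-12 and a subunit of its relative IL-27, were both higher. Of 10 tested interferon gamma targets 8 were higher, among them Cd274 (2.36 ± 0.26) and Gbp2 (3.76 ± 0.37), as were 6 of 11 type I interferon-stimulated genes. Ccl17, a chemokine of migratory DCs, Cd40, the receptor for T cell help, Serpina3g, Sdc4 and Apol7c (in 2 of 4 libraries) were higher by 2.28 to 3.95, and the mitosis genes Ccnb2, Cenpf, Cdca3, Cdca8 and Nusap1 lower by 1.51 to 2.09. Mature DC markers stood at 448 to 860 CPM in the positive against 44.3 to 319 CPM in the negative cells of these libraries, and LSEC markers at 141 to 2102 against 77.1 to 1143 CPM. Their part in the result was not tested.

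In cDC2-like cells (3 libraries, D0 B, D5 A and D5 B) 336 of 10101 genes (3.33%) were called. Cxcl10 (4.02 ± 0.44, edgeR, adjusted p = 2.82e-05) and Cxcl11 (6.07 ± 0.53, adjusted p = 2.30e-06) were higher in Cxcl9-positive cells of 3 of 3 libraries, and Cxcr3 was not called (0.30 ± 0.71). Gbp2 (4.71 ± 0.26), Iigp1 (4.05 ± 0.32), Ifi205 (3.79 ± 0.17), Ccl24 (3.78 ± 0.28) and Serpina3g (3.45 ± 0.22) were higher as well, as were 8 of 12 interferon gamma targets and 9 of 11 type I interferon-stimulated genes. After thinning, 8.66% of Cxcl9-positive against 0.0691% of Cxcl9-negative cDC2-like cells held Cxcl11. Mature DC markers were at 927 to 997 CPM in the positive and 323 to 384 CPM in the negative cells. LSEC markers were higher in the positive cells of each library, at 89.9 against 48.6 CPM (D0 B), 1221 against 193 CPM (D5 A) and 530 against 90.6 CPM (D5 B). The cDC1 markers were higher there as well, at 365 to 476 against 217 to 278 CPM, as were macrophage markers, at 978 to 1295 against 585 to 911 CPM. Ifi205 is also a leading gene of cDC1-like cluster 6. The part of these markers in the result was not tested.

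**Figure D5:**
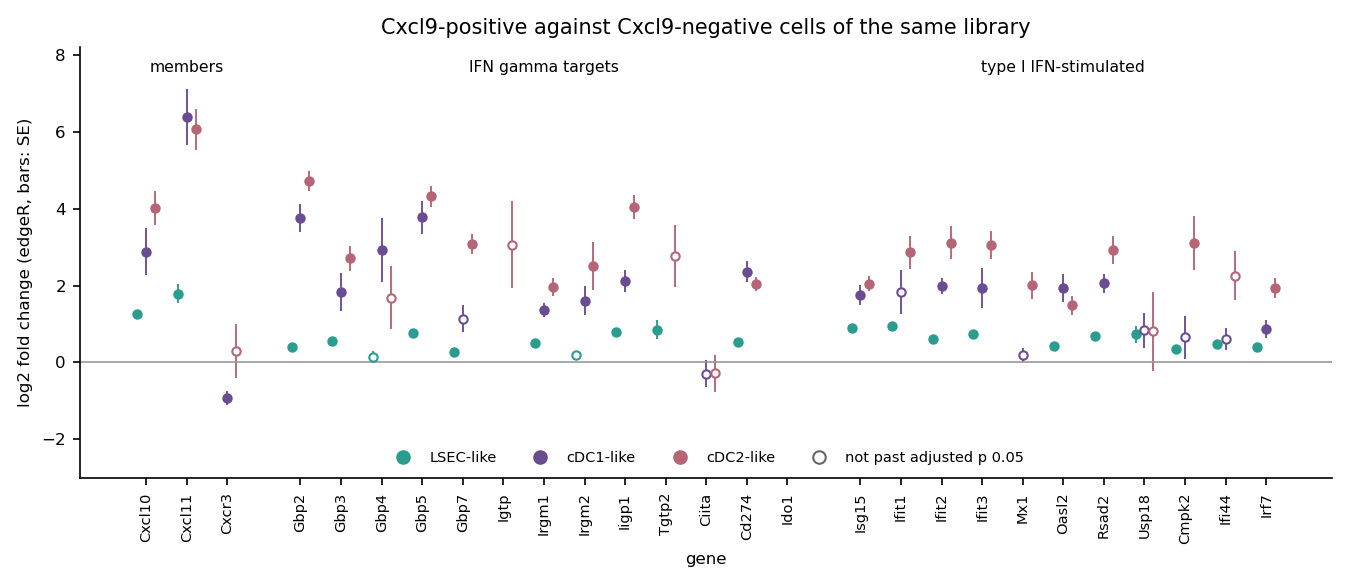
Log2 fold changes by edgeR (points, with SE as bars) of Cxcl9-positive against Cxcl9-negative cells in LSEC-like, cDC1-like and cDC2-like cells, for the other members and 2 gene lists; open points did not pass an adjusted p of 0.05. Cxcl10 and Cxcl11 lie above 0 in all 3 types (from 1.25 for Cxcl10 in LSEC-like cells to 6.39 for Cxcl11 in cDC1-like cells), and most interferon-stimulated genes lie above 0 as well.

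In macrophage-like cells (6 protocol A libraries) 4259 of 10920 genes (39.0%) were called, and Cxcl10 (1.86 ± 0.26, edgeR, adjusted p = 2.31e-05) and Cxcl11 (2.43 ± 0.51, adjusted p = 0.000909) were higher in the Cxcl9-positive cells of 6 of 6 libraries. These cells also differed in LSEC markers, with 2667 to 6449 CPM against 934 to 2689 CPM in the negative cells. Among the genes with the largest changes were the LSEC cluster genes Adamts4 and Art3, higher by 1.89 and 1.88, next to Iigp1 (1.91 ± 0.12), while the macrophage genes Ms4a7 (-1.67 ± 0.15), Arg1 (-2.24 ± 0.25) and Il7r (-2.53 ± 0.24) were lower. The part of LSEC RNA in this comparison was not tested.

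Cxcr3-positive T-like cells were set against Cxcr3-negative ones in the 6 protocol B libraries, where 716 of 9577 genes (7.48%) were called by edgeR. The positive cells lay unevenly over the clusters, with a Cxcr3 UMI after thinning in 22.97% of CD4 T-like cluster 8 and 18.3% of CD8 T-like cluster 23 against 5.88% and 1.29% of the naive T-like clusters 7 and 21, and the part of the clusters in the differences was not tested. Of the T-bet and Th1 list, Tbx21 was higher by 0.82 ± 0.15 (adjusted p = 0.000184), Il12rb2 by 0.79 ± 0.25 and Il18r1 by 0.38 ± 0.11, and so was Ifng (0.91 ± 0.10, adjusted p = 3.65e-08, 6 of 6 libraries). Socs2, Trgc2, Xcl1 and Itgb1 were higher in 6 of 6 libraries, by 0.93 to 1.28, and Ube2c in 4 of 6. Genes of naive T cells, Igfbp4 (-2.80 ± 0.16) and the lymph-node homing receptor Ccr7 (-1.82 ± 0.15), were lower, as were Ifngr2 (-2.43 ± 0.19), a chain of the interferon gamma receptor, Tubb2a (-1.88 ± 0.21) and Tdrp (-1.62 ± 0.22). Among type I interferon-stimulated genes, 0 of 8 tested were called in these cells.

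Genes whose levels ran most like a member's are given as a description over points that share libraries and depth. Over 17 cell types, the Pearson correlation of mean log2(CPM + 1) with Cxcl9 was highest for Cd36 (0.90), Hipk2, Gatm, Klhl5 and Nostrin (all 0.86), with Cxcl10 for Mfsd5 (0.91), and with Cxcl11 for Anapc15 (0.82), Cxcl9 (0.80) and Cxcl10 (0.80). Cxcr3 ran most like Adgrg5 (0.85), Gna15, Pdcd1 and Agap2 (all 0.84). Within LSEC-like cells, over 12 libraries, Cxcl9 ran most like Trib1 (0.93) and Ifi211 (0.92), Cxcl10 like Zfp948 (0.87) and Cxcl11 like Ifit3 (0.86). Within T-like cells, over 10 libraries, Cxcr3 ran most like Grcc10 (0.92).

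Recovery was covered by the STOP library alone, and it is set beside the D19 library of the same protocol without a test. Cxcl9 stood at 924 CPM in LSEC-like cells (Poisson 95% interval 893 to 956, counting error only) against 418 CPM (391 to 446) at D19 B, and at 114 against 22.1 CPM in macrophage-like cells. Of the 330 Cxcl9 UMIs of the 273 macrophage-like cells at STOP, 142 came from 51 cells of cluster 20 and 100 from 21 cells of cluster 24, the clusters led by endothelial genes, which had 42 and 37 of the 725 cells at D19 B. Cluster 3 had 18.3 against 9.29 CPM. In cDC1-like cells the values were close, 216 against 185 CPM, and in cDC2-like cells STOP was lower, 18.6 against 62.9 CPM. Both comparisons rest on few cells. Cells with at least 20 Cxcl9 UMIs at D19 B were 5 of 425 cDC1-like cells (83.2% of the UMIs, with 393 of 665 in 1 cell). They were 3 of 643 cDC2-like cells there (78.5%, up to 136 in a cell). At STOP they were 24 of 1107 cDC1-like cells (59.1%), and no cDC2-like cell held more than 8. Cxcl10 was at 21.8 against 12.2 CPM in LSEC-like cells, with overlapping intervals. Cxcr3 was higher in the STOP library, at 157 against 94.0 CPM in T-like, 158 against 83.9 CPM in NK-like and 81.9 against 52.9 CPM in cDC1-like cells. The CD8 T-like cluster 23 held 34.9% of T-like cells at STOP and 20.7% at D19 B, and the naive T-like cluster 7, low in Cxcr3, 14.5% and 33.7%, so the T-like values come from different mixes of clusters. So do the cDC1-like values, with cluster 40 at 33 of 1107 cells (STOP) and 160 of 425 (D19 B), and cluster 44 at 251 and 40. In cDC1-like cluster 6, Cxcr3 stood at 98.9 against 60.1 CPM. Near-empty barcodes held Cxcl9 at 83.1 CPM in STOP and 38.2 CPM in D19 B, and Cxcr3 at 57.4 and 33.5 CPM.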

How the data were processed

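Per the labels, single-cell suspensions of mouse liver were profiled with 10x 3′ v3.1 chemistry, and the authors aligned the reads with kallisto to GRCm38; its version is not given in the sources used here. The deposited values are raw UMI counts per gene and barcode, with no filter on barcodes, from 13 libraries. Samples were grouped by the diet day and protocol in their labels. A minimum of 1500 UMIs made a barcode a cell. These were clustered together (scanpy 1.11.5 and the Leiden method of igraph 0.11.9 in Python 3.11.15, with no batch correction), leaving out the 4 members and the pathway genes, and clusters were named only from fixed marker lists. Scrublet called 6528 cells (6.83%) as doublets; they were kept, and their removal was an alternative. Where a cell type had under 20 cells in a library, that library was not used for it.

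UMIs were summed per library and cell type and tested across all genes with edgeR 4.0.16 (R 4.3.3; quasi-likelihood test, filterByExpr, TMM, protocol as a term, Benjamini-Hochberg adjustment), with DESeq2 1.42.0 as an alternative. Single values were tested by two-sided exact permutation within protocol (36 arrangements at most, so that p cannot go below 0.0278), and the order of cell types by two-sided exact sign flips over libraries. Shares of cells with a UMI, and positive against negative cells, were taken after each cell was thinned to 1500 UMIs, with the library as a term in the latter. A type with a share of 0 or few UMIs is limited by depth, and intervals cover counting error only. The scripts were tested on simulated data. Named genes were the members, the pathway genes with the smallest adjusted p of each group and the genes most like a member by Pearson correlation. From each positive against negative comparison, 5 called genes in each direction were named. They had large changes and a mean log2 CPM of at least 5.00, and some called genes below that level changed more. The other called pathway genes were named after their values were seen. The members and lists were chosen with earlier results of these data known. Gene positions come from GENCODE vM21 and promoter windows from RefSeq; 3 of 4 members had one. Some genes of these lists are not reported here.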

Additional observations from a re-analysis of the deposited data

Results flagged for a closer look

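In 39 groups of 4 to 10 libraries, 8 held a library far from the others by Dixon's test at the 95% level, where chance gives about 5%, or 1 in 20, for normally distributed values. These groups mix 2 protocols and some of their values sit at or near 0, so the number flagged is not read against that rate. Cxcl9 stood out in LSEC-like cells of D5 A (858 CPM, the other onset libraries 409 to 486), in macrophage-like cells of D9 A (153 CPM, the other progression libraries 10.1 to 54.1) and in T-like cells of D25 A (24.5 CPM from 4 UMIs in 58 cells, the others 0 to 2.38). Of the 3164 Cxcl9 UMIs in macrophage-like cells of D9 A, 1307 came from cluster 24 and 684 from cluster 20, both led by endothelial genes. The value was also below the near-empty barcodes of that library (168 CPM). Cxcl11 stood out 5 times, each on few UMIs. In progression it was high in LSEC-like cells of D25 B (6.62 CPM, 11 UMIs, the others 0.390 to 2.10), in macrophage-like cells of D9 A (1.35 CPM, 28 UMIs, the others 0 to 0.170) and in NK-like cells of D9 B (1.26 CPM, 1 UMI, the others 0). At onset it was high in cDC1-like cells of D3 B (6.00 CPM, 17 UMIs, the others 0.123 to 0.939) and in cDC2-like cells of D5 A (5.09 CPM, 33 UMIs, the others 0 to 0.619).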

How the results depend on the processing

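Of the main counts, 137 of 148 values that left out a library and 68 of 78 under other alternatives kept their size and direction. Of the values for the called genes, the neighbour pairs of cell types and 3 single values, 256 of 389 with a library left out and 472 of 519 under other alternatives kept their direction and their side of the threshold, 131 and 46 lost the call, and 2 and 1 reversed. In DDC against steady state, members called in macrophage-like cells numbered 2 with DESeq2, 2 with no filter on low counts and 0 to 1 with a library left out. In cDC1-like cells 1 was called with DESeq2, where Cxcl11 had no adjusted p, and 0 to 3 with a library left out (1 without D3 B, where Cxcl11 was not tested), in cDC2-like cells 3 with no filter and 0 to 2 with a library left out, and in T-like cells 1 with no filter and 0 to 1 with a library left out. In progression against onset, no filter gave 1 call in macrophage-like and 3 in cDC1-like cells. The neighbour pairs in the order of cell types past the threshold were 2 to 9 with a library left out, against 9 with all. Taking cells as positive by all their UMIs gave 2628 called genes in cDC1-like, 860 in cDC2-like and 1943 in T-like cells. In cDC1-like cells of DDC against steady state, the log2 fold change of Cxcl11 ran from -3.76 to 3.22 and that of Irf7 from -1.95 to 0.056 with a library left out, both reversed only without D0 B. That fit left the 33 cells of D0 A alone at steady state, with no Cxcl11 UMI, so the sign for Cxcl11 rests on missing counts. Also reversed was the difference in Cxcl10 in T-like cells after the near-empty level was taken off (3.20 CPM); the cause was not tested. Of the differences outside this tally, none of them called, that setting also turned the sign of Cxcl9 in LSEC-like, T-like and NK-like cells, Cxcl10 in cDC2-like and NK-like cells and Cxcr3 in macrophage-like and cDC2-like cells. Over all genes, leaving out a library gave 7 to 156 calls in LSEC-like, 56 to 820 in macrophage-like, 15 to 1993 in cDC1-like, 1 to 371 in cDC2-like, 0 to 2005 in T-like and 1 to 563 in NK-like cells for DDC against steady state, and DESeq2 called 244, 1074, 717, 101, 332 and 57. For progression against onset, DESeq2 called 81 in LSEC-like and 387 in macrophage-like cells, and the macrophage-like count was 882 with no filter and 30 without cluster 20. The fits without cluster 20 and without clusters 20 and 24 were chosen after seeing the data. No paired analysis was possible because the replicate numbers stand for the 2 protocols, which are already a term of the fit.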

Other observations

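Plasmacytoid DC-like cells carried Cxcr3 at 52.5 ± 25.5 CPM (SD, n = 9 libraries) and at 123 CPM in the STOP library, next to 38.2 ± 16.3 CPM in cDC1-like cells. In the D0 protocol B library, 64 of 1197 cDC1-like cells held at least 20 Cxcl9 UMIs and with them 81.7% of the Cxcl9 UMIs of the type. In the Cxcl9-positive macrophage-like cells, Dpp4, which codes for the peptidase that trims the ligands, was higher by 1.36 ± 0.09 on the log2 scale (edgeR, adjusted p = 6.44e-09, 6 of 6 libraries), and in Cxcr3-positive T-like cells it was lower (-0.68 ± 0.17, adjusted p = 0.00621, lower in 6 of 6). LSEC markers differed between the positive and negative macrophage-like cells, as given above.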
